A study of Mus musculus with 11 samples.

Results

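The 10 genes described here make, sense and break down prostaglandins: the cyclooxygenases Ptgs1 and Ptgs2, the terminal synthases Ptgis, Ptges and Ptgds, the receptors Ptgir, Ptger2, Ptger3 and Ptger4, and the degrading enzyme Hpgd. They were taken by symbol, all 10 were found among the 27998 genes of the 10x tables and the 23998 symbols of the plate tables, and each was followed across the mesenchymal cells of the mouse liver. The cells came from adult male Pdgfrb-BAC-eGFP mice on a C57BL/6 background, in which a bacterial artificial chromosome drives green fluorescent protein (GFP) from Pdgfrb, and each group carried this reporter. GFP+ cells without CD45 or CD102 staining were sorted, so the groups sample sorted mesenchyme and not whole liver. There were 5 droplet (10x) libraries, each of 3 pooled mice: 3 made by the hepatic stellate cell (HSC) isolation, with enzymes perfused through the liver and a density gradient, from uninjured mice, mice 72 h after 1 dose of carbon tetrachloride (CCl4) and mice given CCl4 for 6 weeks, and 2 made by the portal fibroblast (PF) isolation, with minced liver digested outside the body, from uninjured mice and mice given CCl4 for 6 weeks. There were also 6 Smart-seq2 plates with wells of uninjured mice, mice 14 days after bile duct ligation (BDL) and mice given CCl4 for 6 weeks, split by the plate layouts into 17 portions, each the wells of 1 mouse on 1 plate.

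Prostaglandins are short-lived lipid signals. Cyclooxygenases convert arachidonic acid, released by phospholipase A2, into prostaglandin H2, and terminal synthases turn it into prostacyclin (Ptgis), prostaglandin E2 (Ptges) or prostaglandin D2 (Ptgds). The products act close to where they are made through G protein-coupled receptors, of which the prostacyclin receptor (Ptgir) and the prostaglandin E receptors EP2 (Ptger2) and EP4 (Ptger4) raise cyclic AMP and EP3 (Ptger3) mostly lowers it, and 15-hydroxyprostaglandin dehydrogenase (Hpgd) then inactivates them. In the liver, prostaglandins are known to act on vessel tone and on stellate cells, the vitamin A-storing cells of the sinusoid that become collagen-producing after injury.

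The members lay on 7 chromosomes of GRCm38 (mm10). Ptgs2, the inducible cyclooxygenase, spanned positions 150100031 to 150108227 of chromosome 1, and Ptgs1, the constitutive one, 36230426 to 36252272 of chromosome 2. Chromosome 2 also held Ptgis at 167191805 to 167240604, Ptges at 30889471 to 30929863 and Ptgds at 25466709 to 25470046. Ptger2 lay at 44988195 to 45003820 of chromosome 14.

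The promoters of Ptgs2, Ptges and Ptger2 are shown because Ptgs2 and Ptges were the members with the highest ratio of fibroblast to stellate levels and Ptger2 the member most inclined to stellate cells. Sequences are from RefSeq on GRCm38.p6, which matched 9 of the 10 members (Ptgis was the other), and give the 250 bases before the transcription start. Capitals mark motif matches on either strand, searched from 250 bases before to 50 bases after each start. The core of the cyclic AMP response element was searched as TGACG. The C/EBP motif was searched as TTNNGNAA. The E box was searched as CACGTG. The GC box was searched as GGGCGG. The TATA box was searched as TATAAA.
Ptgs2, chr1:150099781-150100030, plus strand: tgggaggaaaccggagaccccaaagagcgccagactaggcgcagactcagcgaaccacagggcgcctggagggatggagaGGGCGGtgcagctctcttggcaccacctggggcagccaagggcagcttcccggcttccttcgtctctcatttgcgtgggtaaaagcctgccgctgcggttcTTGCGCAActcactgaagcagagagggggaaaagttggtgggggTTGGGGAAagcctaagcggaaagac
Ptges, chr2:30903298-30903547, minus strand: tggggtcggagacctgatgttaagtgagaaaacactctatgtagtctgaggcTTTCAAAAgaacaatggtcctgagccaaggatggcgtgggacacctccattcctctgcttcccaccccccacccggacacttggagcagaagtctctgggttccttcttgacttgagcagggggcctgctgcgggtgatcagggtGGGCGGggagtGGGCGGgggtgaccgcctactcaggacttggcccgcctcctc
Ptger2, chr14:44987861-44988110, plus strand: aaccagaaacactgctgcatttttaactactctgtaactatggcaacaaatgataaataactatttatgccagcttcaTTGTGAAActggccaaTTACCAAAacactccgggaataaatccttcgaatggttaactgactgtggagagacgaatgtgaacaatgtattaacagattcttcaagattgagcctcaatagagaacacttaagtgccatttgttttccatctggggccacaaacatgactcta
Ptgs2 just after the start, chr1:150100036-150100065, plus strand: caccactaCGTCACGTGgagtccgctttac

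The Ptgs2 promoter held a GC box 170 bases before the start and C/EBP matches 69 and 25 bases before it, and just after the start a reverse-strand TGACG match at base 14 overlapped an E box at base 17. Ptges held a C/EBP match 198 bases and GC boxes 53 and 42 bases before its start. Ptger2 had no GC box in this window, C/EBP matches 172 and 156 bases before and 40 bases after the start, and a GC content of 38%, against 61.6% for Ptgs2 and 59.6% for Ptges. Such matches are common: of 32851 promoters of the same length, 40.7% held TTNNGNAA (5 of 9 members), 35.7% GGGCGG (6 of 9), 20.8% TGACG (1 of 9), 13.6% TATAAA (1 of 9) and 7.15% CACGTG (1 of 9).

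The 10x libraries held 5454 to 7310 cells after filtering and 25965670 to 86664085 unique molecular identifiers (UMIs) in all, and the plates kept 2085 of 2292 labelled wells at a median of 392996.5 to 462650.5 reads a well before filtering. Clusters were called FB-like (fibroblast), HSC-like or vascular smooth muscle (VSMC)-like from fixed markers, without using the 10 members. HSC-like cells came from the HSC libraries (6707, 7271 and 2922 cells in uninjured, 72 h and 6-week mice) and FB-like and VSMC-like cells from the PF libraries (4066 and 1512 uninjured, 2635 and 2785 at 6 weeks), with 37 FB-like cells in the HSC libraries. At 6 weeks 2510 of 5454 cells of the HSC library (46.0%) stayed unnamed, since a marker of another class was among their clusters' leading genes. This was the endothelial marker Clec4g in the cluster it led (1915 cells) and the mesothelial marker Wt1 in that led by Fam180a (595 cells). Both clusters scored highest for HSC (0.889 and 0.628). Of each 1000000 UMIs, the unnamed cells held 15713 of the 7 HSC markers, against 14325 in the HSC-like cells of that library. Any 2 libraries shared 33 to 74 cell barcodes. On the plates FB-like and VSMC-like wells were summed in 6 uninjured, 5 BDL and 4 CCl4 portions, and HSC-like wells in 2 uninjured portions, both on plate 6. Fewer uninjured livers than uninjured portions were used for the plates according to the study's methods, so some uninjured portions share a mouse, and the labels do not tie any portion to a mouse across plates. Each n below therefore counts portions and not mice, and p-values over portions are too small. Levels are UMIs scaled to a total of 1000000 (CPM), with 95% Poisson intervals that cover counting error only, or reads scaled the same way (RPM) for the summed wells of a portion. A summed level does not separate fewer expressing cells from less RNA per cell.

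**Figure D1:**
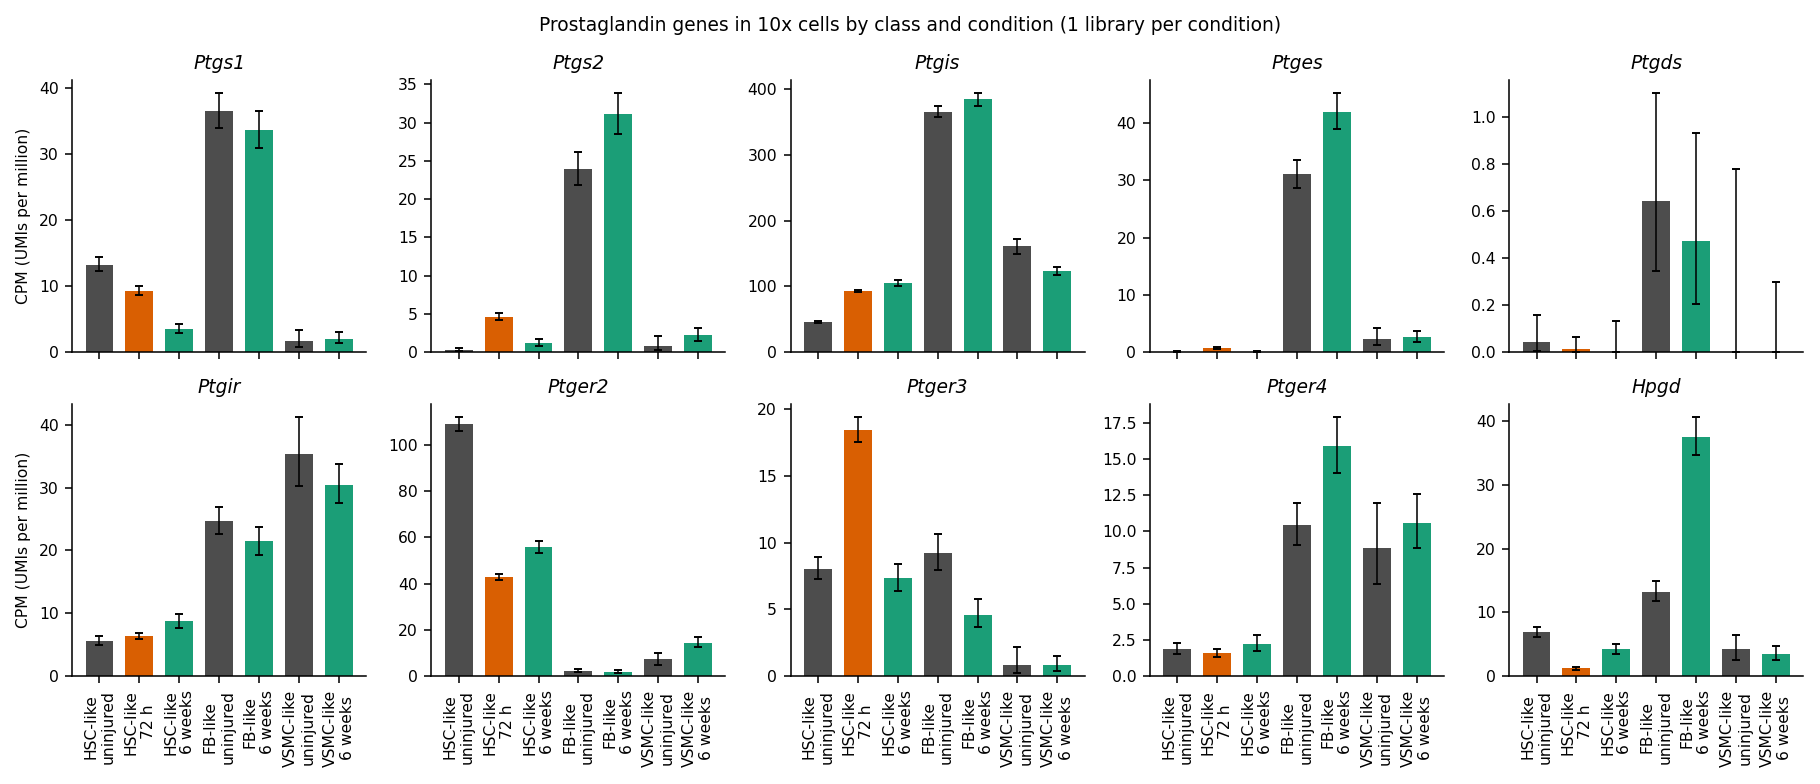
Level of each member (vertical axis, CPM from 0, scale differs between panels) in HSC-like, FB-like and VSMC-like cells of the 10x libraries; bars are summed UMIs of 1 library and whiskers 95% Poisson intervals of counting error. Ptger2 was highest in HSC-like cells, Ptgs1, Ptgs2, Ptgis, Ptges and Hpgd in FB-like cells, and Ptgir in VSMC-like cells.

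Ptgs1, whose enzyme makes prostaglandin H2 in many resting cells, stood at 36.5 CPM in uninjured and 33.6 CPM in 6-week FB-like cells, at 13.3, 9.29 and 3.48 CPM in uninjured, 72 h and 6-week HSC-like cells, and at 1.69 and 2.02 CPM in VSMC-like cells. Among FB-like cells it was uneven. The cluster led by Ly6c1, Pi16 and Mfap5 held 157 CPM in uninjured and 183 CPM in 6-week mice, against 14.8 to 19.4 CPM in the clusters led by Sfrp1 and by Thbs4. In HSC-like cells the 6-week level was lower by 1.93 on the log2 scale [95% interval -2.26 to -1.62], and the 2510 unnamed cells of that library stood at 3.59 CPM, close to the HSC-like 3.48. At 72 h the level was lower by 0.51 on the log2 scale.

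Ptgs2, the cyclooxygenase induced by cytokines and stress, was largely an FB-like transcript, at 23.9 CPM uninjured and 31.1 CPM at 6 weeks. VSMC-like cells held 0.843 and 2.18 CPM. HSC-like cells held 15 UMIs of Ptgs2 in 6707 uninjured cells (0.330 CPM), 400 UMIs at 72 h (4.64 CPM) and 34 UMIs at 6 weeks (1.22 CPM). The share of cells with a UMI was 8.12% in uninjured FB-like cells and 0.134% in uninjured HSC-like cells, although the HSC-like cells were deeper (median 6718 against 4893 UMIs a cell). At 72 h the Ptgs2 level was 14.0-fold the uninjured one (log2 3.81, 95% interval 3.07 to 4.66), from a very low base. Levels of Ptgs2 by cluster of 72 h HSC-like cells ran from 0.177 CPM in the cluster led by Alpl and Mest and 2.19 CPM in the cycling cluster led by Ube2c to 6.47 and 6.50 CPM in the others. With finer clusters, 175 cells of the 72 h library, mostly in a cluster led by the acute-phase gene Saa3, were named FB-like. They held 84 of the 407 Ptgs2 UMIs (20.6%), and the other cells stood at 3.84 CPM. That Saa3 cluster was close between classes, scoring 0.326 for FB, 0.302 for HSC and 0.251 for VSMC. It had 0 FB markers among its 10 leading genes. At the main setting 15 cells of the 72 h library were FB-like.

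At 6 weeks a small set of cells held most of the Ptgs2 in the HSC library. The 22 FB-like cells in it, 17 of them in the Saa3-led cluster, carried 87 of 128 Ptgs2 UMIs (68.0%), which put them at 220 CPM against 0.791 CPM in the other cells. They also held 14 of 23 Ptges UMIs, 73.3 CPM of Ptgs1 against 3.53, and 417 CPM of Ptgis against 108, but only 1 UMI of Ptger2 (2.53 CPM against 57.0). The 15 FB-like cells of the 72 h library gave the same order for Ptgis, at 506 against 92.7 CPM, Ptgs1, at 129 against 9.26, and Ptger2, at 5.62 against 42.9. Ptger3 differed between the libraries, with 50 UMIs in the 6-week FB-like cells (126 CPM against 9.10 in the other cells) and 0 UMIs in the 72 h ones (18.4 CPM in the other cells). The 6-week cells held 3665 CPM of the 8 FB markers against 553 CPM in the other cells of the library, and 2098 against 14966 CPM of the 7 HSC markers. They also held 162 against 38.2 CPM of the 5 mesothelial markers, nearly all Wt1, the 1 UMI of Msln and both UMIs of Krt19 in the library. The Saa3-led cluster scored 0.380 for FB and 0.29 for HSC, where the other FB-like clusters scored 0.760 to 0.88 for FB. As in those other clusters, 0 FB markers were among its 10 leading genes. The 5 Kupffer markers gave 40.4 against 1.16 CPM, with all 16 UMIs from Csf1r. The part of other cell types in their values was not tested. The 72 h cells held 6129 against 336 CPM of the FB markers and 39.3 against 34.2 CPM of the mesothelial ones. Between the FB-like cells of the PF libraries and the HSC-like cells, class and isolation cannot be told apart.

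Ptgis, prostacyclin synthase, was present in each class. It reached 366 CPM in uninjured and 385 CPM in 6-week FB-like cells, with a UMI in 71.2% and 78.5% of them. VSMC-like cells held 161 and 123 CPM, and this class was split: the cluster led by Pcp4l1 and Pln stood at 215 and 243 CPM and that led by Ephx3 and Higd1b at 35.4 and 37.9 CPM in uninjured and 6-week mice. The class value was lower at 6 weeks while neither cluster value was, with 51 and 274 UMIs of Ptgis in the Ephx3 cluster. That cluster held 491 of 1512 uninjured and 1617 of 2785 6-week VSMC-like cells. The part of this shift in the class value was not tested. HSC-like cells held 45.6 CPM [43.7 to 47.7] uninjured, 92.8 CPM at 72 h and 105 CPM at 6 weeks, log2 differences of 1.02 [0.954 to 1.09] and 1.202 [1.12 to 1.28]. At 72 h the range over clusters was 69.5 to 107 CPM, and the 6-week unnamed cells were uneven, at 76.0 CPM in the 1915 cells of the Clec4g cluster and 221 CPM in the 595 of the Fam180a cluster.

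Ptges, the inducible synthase of prostaglandin E2, was close to absent from HSC-like cells, with 2 UMIs in uninjured, 57 in 72 h and 1 in 6-week cells (0.0440, 0.661 and 0.0358 CPM). FB-like cells held 31.1 CPM uninjured and 42.0 CPM at 6 weeks, log2 0.44 [0.279 to 0.593] higher. VSMC-like cells held 2.32 and 2.59 CPM. Ptgds was rare throughout: 13 and 8 UMIs in FB-like cells, at most 2 in HSC-like cells and 0 in VSMC-like cells, where 3 UMIs would give 0.632 CPM in uninjured and 0.243 CPM in 6-week mice.

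Ptger2, which encodes the EP2 receptor, had the reverse pattern of Ptges. Uninjured HSC-like cells held 4942 UMIs (109 CPM) and 50% of them had a UMI, whereas FB-like cells held 2.28 CPM and 1.03% had a UMI. The level in HSC-like cells was lower at 72 h, at 42.9 CPM (log2 -1.34, 95% interval -1.41 to -1.28), and at 6 weeks, at 55.7 CPM (log2 -0.97). With each cell thinned to 2000 UMIs, 19.1% of uninjured, 8.58% of 72 h and 9.96% of 6-week HSC-like cells had a UMI of Ptger2, against 50%, 36.7% and 38.2% unthinned; 114 uninjured cells were too shallow and left out. The 72 h clusters ran from 27.4 CPM in the cycling cluster to 82.4 CPM in that led by Alpl and Mest, all under the 105 and 112 CPM of the main uninjured clusters. In VSMC-like cells Ptger2 was at 7.17 CPM uninjured and 14.5 CPM at 6 weeks, with the Ephx3 cluster (15.98 and 21.97 CPM) above the Pcp4l1 cluster (3.33 and 3.8996 CPM).

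The other receptors were spread over the classes. Ptgir, the prostacyclin receptor, stood at 35.4 and 30.5 CPM in uninjured and 6-week VSMC-like cells, whereas the FB-like groups held 24.7 and 21.4 CPM and the HSC-like groups 5.59, 6.37 and 8.78 CPM. Within FB-like cells the Ly6c1 cluster, highest for Ptgs1, was lowest for Ptgir, at 4.06 and 6.49 CPM against 20.5 to 28.5 CPM. Ptger3 in HSC-like cells went from 8.06 to 18.5 CPM at 72 h (log2 1.197, 95% interval 1.03 to 1.365) and stood at 7.34 CPM at 6 weeks. The unnamed cells of the 6-week HSC library stood at 13.5 CPM of Ptger3 in the Clec4g cluster and 4.03 CPM in the Fam180a cluster. The 6-week level thus depends on which cells were named. Ptger4, the other cyclic AMP-raising receptor of prostaglandin E2, ranged from 1.59 to 2.22 CPM in the HSC-like groups, stood at 10.4 CPM in uninjured and 15.9 CPM in 6-week FB-like cells, and at 8.85 and 10.6 CPM in the VSMC-like groups.

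Hpgd, which inactivates prostaglandins, was higher in 10x FB-like cells at 6 weeks, 37.6 against 13.3 CPM (2.84-fold; log2 1.504, 95% interval 1.30 to 1.72), and the share of cells with a UMI was 5.48% and then 16.2% (2.61% and 6.41% after thinning to 2000 UMIs). By FB-like cluster it went from 21.8 to 45.7 CPM (Sfrp1) and from 5.56 to 18.3 CPM (Thbs4). In the Ly6c1 cluster it was 8.80 and then 14.3 CPM, from only 26 and 22 UMIs. The Sfrp1 cluster, the highest for Hpgd, held 1901 of 4066 uninjured and 1889 of 2635 6-week FB-like cells. The part of this shift in the Hpgd value was not tested. HSC-like cells went the other way at 72 h, from 6.85 to 1.24 CPM (log2 -2.46), and stood at 4.23 CPM at 6 weeks. In the same FB-like comparison the heat shock genes Hspa1a and Hspa1b and the chemokine Ccl2 were lower and Il6 and Acta2 higher by 2-fold or more, and their part in the Hpgd value was not tested.

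**Figure D2:**
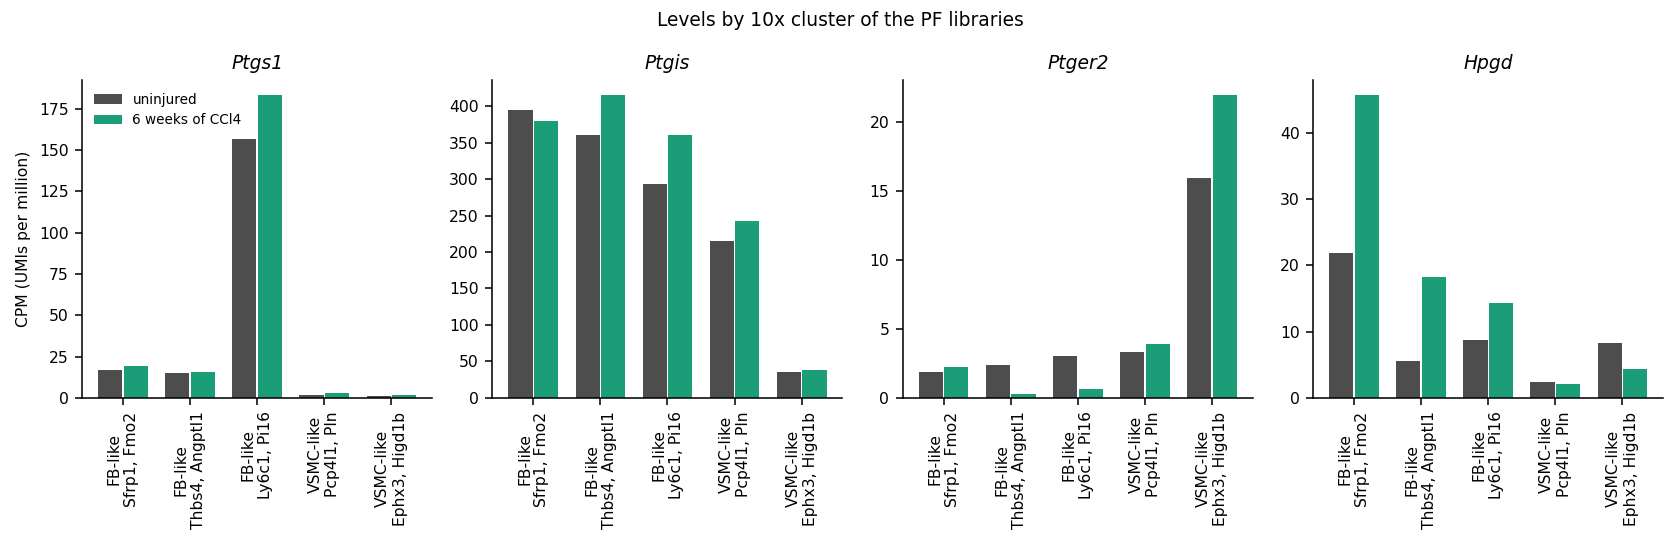
Level of Ptgs1, Ptgis, Ptger2 and Hpgd (vertical axis, CPM from 0) in FB-like and VSMC-like clusters of the PF libraries, named by leading genes; grey bars are uninjured and green bars 6 weeks of CCl4. Ptgs1 was concentrated in the Ly6c1, Pi16 cluster (157 and 183 CPM), and Ptgis and Ptger2 were in different VSMC-like clusters.

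With 1 library of pooled mice a condition, the 10x differences have no replicate check, and a gene was called at 2-fold or more where its mean over both libraries reached 5 CPM, a level that Ptgs2 and Hpgd did not reach in HSC-like cells at 72 h. At 72 h, 3 of the 5 members past that level were called in HSC-like cells (Ptgis and Ptger3 higher, Ptger2 lower), against 16% of 9576 genes (6.87% higher, 9.15% lower), and the median gene was -0.21 on the log2 scale. At 6 weeks 2 of 6 were called in HSC-like cells (Ptgis higher, Ptgs1 lower), against 5.13% of all genes (3.17% higher, 1.97% lower) with a median gene of -0.24. In FB-like cells 1 of 8 was called (Hpgd, higher), against 1.96% of genes (1.45% higher, 0.511% lower), and in VSMC-like cells 1 of 4 (Ptger2, higher), against 3.97% (3.44% higher, 0.529% lower). Ptger2 in VSMC-like cells was at the limit (log2 1.01, 95% interval 0.479 to 1.59) and was not called when each cell was weighted equally. Within the VSMC-like clusters its change stayed under 2-fold, from 15.98 to 21.97 CPM (Ephx3) and 3.33 to 3.8996 CPM (Pcp4l1). The Ephx3 cluster, the higher for Ptger2, held 491 of 1512 uninjured and 1617 of 2785 6-week VSMC-like cells. The part of this shift in the Ptger2 call was not tested. Ptger3 in FB-like cells, from 9.21 to 4.61 CPM, was just under the limit (log2 -0.999). Signs of cell stress moved with the 72 h comparison: 6 of 7 heat shock genes, 4 of 9 immediate early genes and 4 of 6 inflammatory stress genes past the level were lower at 72 h than in uninjured HSC-like cells, and 6 of 6 HSC activation genes (such as Col1a1 and Acta2) were higher. At 6 weeks Nr4a1 was higher, Ccl2 lower and 4 of 6 activation genes higher in HSC-like cells. Their part in the members' values was not tested. Within uninjured cells, the cluster with 21682 CPM of immediate early genes and that with 5800 CPM gave Ptger2 at 105 and 112 CPM, Ptgis at 41.2 and 47.7 CPM, Ptgs1 at 14.7 and 12.7 CPM and Hpgd at 8.17 and 6.17 CPM. In the same order Ptger3 was 5.30 and 9.59 CPM, Ptgir 4.34 and 5.996 CPM and Ptger4 2.68 and 1.25 CPM.

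On the plates, where portions replicate a condition, the member called for both injuries was Ptgs1, in FB-like wells. The 6 uninjured portions held 0, 0.129, 0.133, 1.08, 1.198 and 6.22 RPM, the 5 BDL portions 18.6, 37.8, 38.2, 48.8 and 69.9 RPM, and the 4 CCl4 portions 80.3, 88.5, 88.6 and 172 RPM. Each injured portion was above each uninjured one. The means were 1.46 ± 2.39 RPM (SD, n = 6), 42.7 ± 18.7 RPM (n = 5) and 107 ± 43.5 RPM (n = 4), where n counts portions and the uninjured ones come from fewer mice, and 4.65%, 21.5% and 57.3% of the wells had a Ptgs1 read. In edgeR's quasi-likelihood test the log2 fold change was 4.87 (SE 0.91, adjusted p = 0.0227) for BDL and 6.19 (SE 0.97, adjusted p = 0.00425) for CCl4, and within plates 5 of 5 BDL and 4 of 4 CCl4 portions were above the uninjured portion of their plate. Ptgs1 was the 1 member of 10 called for BDL (0.724% of 13399 genes were called, 0.612% higher and 0.112% lower), and Ptgs1 and Ptger3 were the 2 called for CCl4 (0.754%, with 0.702% higher and 0.0522% lower).

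The Ptgs1 call rests on how wells were named. An unnamed cluster led by Cyp2e1 and Wif1, of 78 uninjured and 34 CCl4 wells and no BDL wells, held Ptgs1 at 50.6 and 79.2 RPM, and with these wells counted as FB-like the log2 fold change was 0.92 for BDL (edgeR adjusted p = 0.657) and 2.13 for CCl4 (edgeR adjusted p = 0.199). The BDL call was also lost without the uninjured portion of plate 3 (edgeR adjusted p = 0.0650) or portion 1 of plate 6 (edgeR adjusted p = 0.0526). Of the CCl4 FB-like wells, 139 of 220 were in a cluster led by Saa3, with 184.7 RPM of Ptgs1, which had 8 BDL wells and no uninjured ones. In the FB-like clusters led by Sfrp2 and by Has1, Ptgs1 stood at 0 and 0.605 RPM in uninjured wells, 29.4 and 18.3 RPM in BDL wells and 36.6 and 7.57 RPM in the 9 and 66 CCl4 wells. The difference between the FB-like and the VSMC-like change, tested after the data had been seen, did not pass for CCl4 (log2 9.85, SE 1.79, edgeR adjusted p = 0.119) or BDL (log2 4.63, edgeR adjusted p = 0.617).

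Ptger3 in FB-like wells was 90.9, 95.9, 106 and 118 RPM in the 4 CCl4 portions. The uninjured portions held 7.67, 9.19, 15.7, 17.2, 20.9 and 27.0 RPM and the BDL portions 2.75, 26.0, 26.2, 32.4 and 34.2 RPM. All CCl4 portions thus lay above all others. The log2 fold change of CCl4 against uninjured was 2.64 (SE 0.52, edgeR adjusted p = 0.0180), and this call was lost with plate as a term (log2 2.45, edgeR adjusted p = 0.575) and without CCl4 portion 1 of plate 3 (edgeR adjusted p = 0.0547), 1 of plate 5 (edgeR adjusted p = 0.0622) or 2 of plate 5 (edgeR adjusted p = 0.0726). The Saa3 cluster held 164 RPM of Ptger3 in CCl4 wells, and the CCl4 wells of the Has1 and Sfrp2 clusters held 5.75 and 1.97 RPM. For BDL the log2 fold change was 0.55 (SE 0.48, edgeR adjusted p = 0.801).

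Markers of other cells moved with these FB-like differences. The 6 leucocyte markers summed to 0 to 55.0 RPM in uninjured, 0.371 to 441 RPM in BDL and 279 to 665 RPM in CCl4 portions, but of these Cd74, a class II chaperone also found outside leucocytes, made 270 to 654 RPM in CCl4 portions, while Ptprc, which encodes CD45, was at most 0.242 RPM and Tyrobp at most 0.0303 RPM there. In BDL portions Ptprc reached 2.30 RPM and Tyrobp 24.5 RPM, and in uninjured ones Ptprc reached 10.7 RPM. The 5 mesothelial markers summed to 41.0 to 159 RPM, 16.8 to 369 RPM and 186 to 582 RPM in uninjured, BDL and CCl4 portions, mostly Wt1, with Msln at 0 to 25.6 RPM and Lrrn4 at 17.4 to 57.2 RPM in CCl4 portions, where Lrrn4 was at 0 in the uninjured ones. The 5 cholangiocyte markers summed to 8.56 to 27.5 RPM, 56.8 to 2094 RPM and 102 to 918 RPM, mostly Spp1. Of the others, Krt19 was at most 0.0759 RPM in uninjured portions, 0 to 19.2 RPM in BDL and 3.33 to 35.1 RPM in all CCl4 portions, and Epcam was at most 1.98 RPM. An unnamed cluster of 44 wells led by Msln and Krt18, kept out of these sums, held 196, 82.7 and 457 RPM of Ptgs1 in uninjured, BDL and CCl4 wells. The part of such cells in the Ptgs1 and Ptger3 results was not tested.

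**Figure D3:**
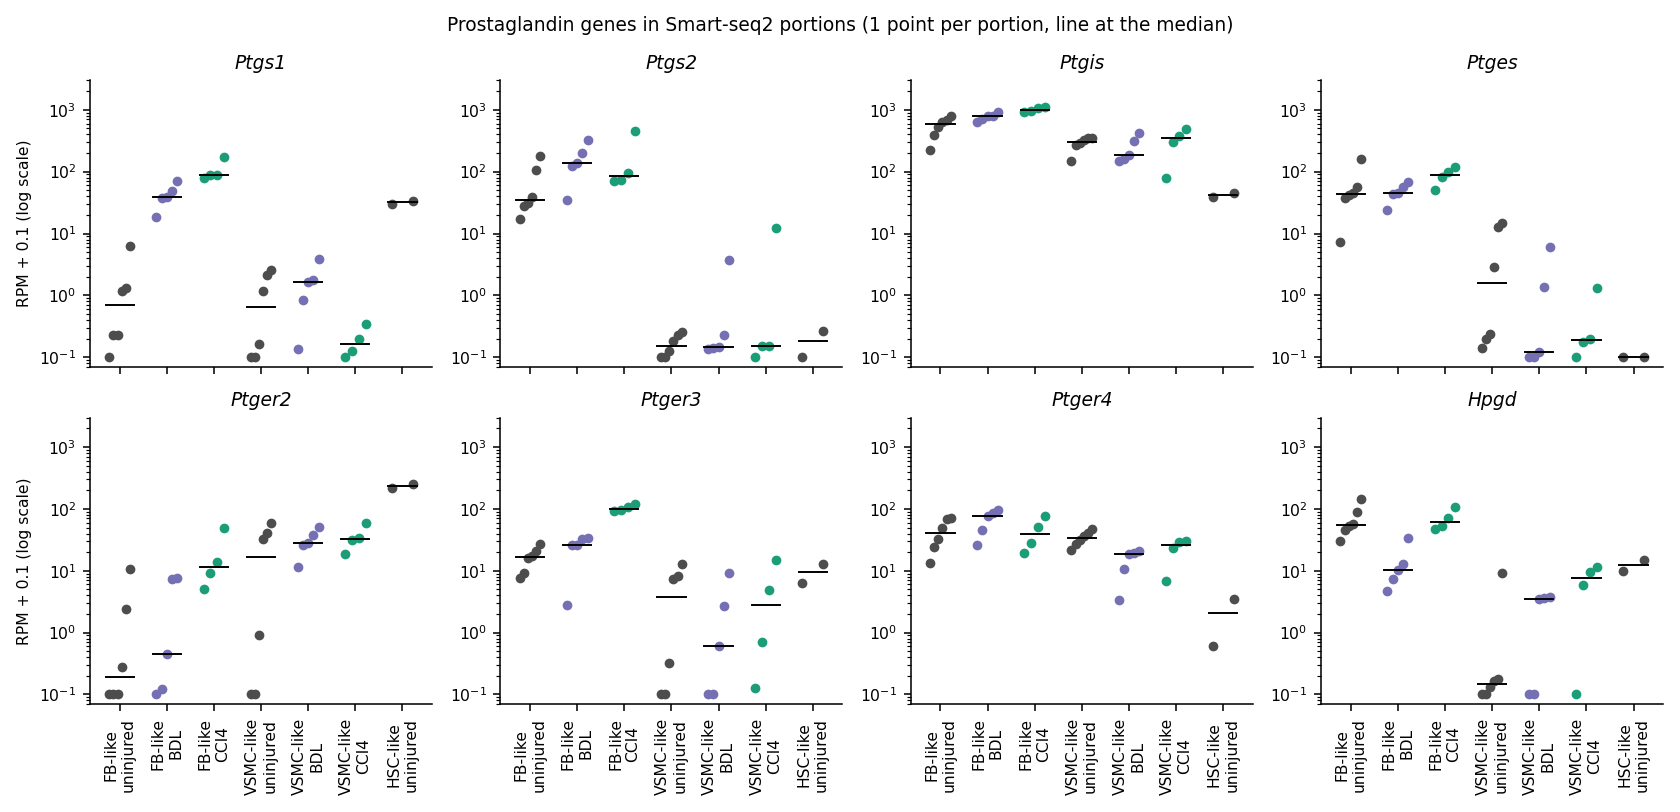
Level of 8 members in each portion of Smart-seq2 wells (points; vertical axis RPM + 0.1 on a log scale; lines are medians), by class and condition. Ptgs1 was at 0 to 6.22 RPM in uninjured and 18.6 to 172 RPM in injured FB-like portions, and Ptger2 was at 221 and 253 RPM in the HSC-like portions.

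Hpgd did not follow the same order. The 5 BDL portions of FB-like wells held 4.58, 7.23, 10.05, 12.96 and 34.1 RPM, the uninjured ones 30.4, 45.9, 52.8, 57.5, 89.9 and 146 RPM and the CCl4 ones 47.0, 52.8, 71.3 and 108 RPM. BDL portion 1 of plate 4, at 34.1 RPM, was the 1 BDL portion above the lowest uninjured one, and 0 of 5 BDL portions were above the uninjured portion of their plate. The log2 fold change for BDL was -2.33 (SE 0.53, edgeR adjusted p = 0.0506), which missed the threshold, and that of BDL against CCl4 was -2.32 (SE 0.56, edgeR adjusted p = 0.157). By cluster, Hpgd was at 94.0 RPM in uninjured and 15.9 RPM in BDL wells of the Sfrp2 cluster and at 62.8 and 38.6 RPM in the Has1 cluster. For CCl4 against uninjured the log2 fold change was -0.00 (SE 0.52, edgeR adjusted p = 0.99982), although 0 of 4 CCl4 portions were above the uninjured portion of their plate.

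The remaining members of FB-like wells did not pass the test. Ptgis was 631 to 921 RPM in BDL, 927 to 1124 RPM in CCl4 and 221 to 788 RPM in uninjured portions, so each CCl4 portion was above each uninjured one, with a log2 fold change of 0.90 (SE 0.26, edgeR adjusted p = 0.138). Ptgs2 was 35.0 to 326 RPM in BDL, 71.2 to 453 RPM in CCl4 and 17.3 to 178 RPM in uninjured portions, with wide overlap. Ptges was 23.7 to 67.4 RPM, 50.4 to 118 RPM and 7.09 to 159 RPM, and Ptger4 was 26.3 to 94.2 RPM, 19.5 to 75.7 RPM and 13.2 to 71.6 RPM. Ptger2, at 0 to 10.6 RPM in uninjured portions, was 5.03 to 48.7 RPM in CCl4 portions (log2 3.12, SE 1.77, edgeR adjusted p = 0.720), with 37.6 RPM in the Saa3 cluster. Ptgir was 0 to 47.2 RPM in BDL, 8.99 to 17.2 RPM in CCl4 and 12.05 to 63.7 RPM in uninjured portions, and Ptgds reached 21.4 RPM in 1 CCl4 portion. Between BDL and CCl4, 0 of 10 members were called by edgeR (12 of 13399 genes, 0.0896%, with 0.0299% higher and 0.0597% lower in BDL), 2 had an unadjusted p under 0.05 (Hpgd and Ptger3), and DESeq2 called the same 2.

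In VSMC-like wells edgeR called 0 of the 8 members tested in each comparison (0.283% of 13093 genes for BDL against uninjured, 0.199% higher and 0.0840% lower, 0% for CCl4 and 0.00764% for BDL against CCl4), and DESeq2 called 0 as well. At an unadjusted p under 0.05 there was 1, Ptger4 for BDL, at 3.23 to 20.5 RPM against 21.4 to 47.6 RPM uninjured, without overlap (log2 -1.18, SE 0.49, edgeR adjusted p = 0.468). Ptgis stood at 147 to 353 RPM in uninjured, 151 to 421 RPM in BDL and 78.1 to 482 RPM in CCl4 portions. The well clusters also differed: Ptgis was at 779 RPM in the Plin4 cluster, 678 RPM in the Actc1 cluster and 59.3 RPM in the Acan cluster, and Ptger2 was at 0.457, 0.583 and 50.8 RPM in the same order. Ptger3 reached 45.3 RPM in the Actc1 cluster. Ptgir was 24.2 to 80.4 RPM in uninjured, 18.6 to 49.9 RPM in BDL and 30.9 to 50.1 RPM in CCl4 portions, and Ptger2 0 to 58.0 RPM, 11.2 to 51.4 RPM and 18.6 to 59.9 RPM, with overlap in both. Ptgs1 was at or below 3.80 RPM, Hpgd at or below 11.3 RPM, Ptger3 at or below 14.7 RPM and Ptges at or below 14.9 RPM in every portion. Ptgs2 and Ptgds were too low to be tested, with highest portions of 12.4 and 8.41 RPM.

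Between classes of uninjured wells, FB-like and VSMC-like wells of the same portions were compared with the portion as a block. Ptgs2 was 17.3 to 178 RPM in FB-like and 0 to 0.156 RPM in VSMC-like portions (log2 9.91, SE 0.78, edgeR adjusted p = 7.87e-05), and Hpgd 30.4 to 146 RPM against 0 to 9.20 RPM (log2 9.79, SE 1.52, edgeR adjusted p = 0.00266). These were 2 of 9 members tested, with 12.2% of 14125 genes called (6.36% higher, 5.81% lower). Ptgis, at log2 1.01 (SE 0.33, edgeR adjusted p = 0.0898), and Ptgir, at log2 -1.01 (SE 0.42, edgeR adjusted p = 0.179), did not pass, nor did Ptges (log2 5.74, SE 2.13, edgeR adjusted p = 0.131), Ptger3 (log2 3.995, SE 1.91), Ptgs1 (log2 0.74, SE 1.96), Ptger4 (log2 0.32, SE 0.46) or Ptger2 (log2 -6.30, SE 5.19). Ptgds was too low to be tested.

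HSC-like wells came from 2 portions of plate 6, so class and isolation cannot be told apart. Plate 6 also held 12 FB-like and 17 VSMC-like wells, in portion 1, and the test had no plate term. Ptger2 was 221 and 253 RPM in the HSC-like portions against 0 to 10.6 RPM in FB-like portions, log2 6.93 (SE 2.12), but did not pass (edgeR adjusted p = 0.0759). Ptgs1, at 29.4 and 34.0 RPM against 0 to 6.22 RPM, did not pass either (log2 4.61, SE 1.89, edgeR adjusted p = 0.224), nor did Hpgd (log2 -2.35, SE 1.96), Ptgir (log2 -1.44, SE 0.71), Ptger3 (log2 -0.66, SE 1.75) or Ptgds (log2 0.54, SE 2.26). For Ptgs1 the uninjured 10x libraries gave the reverse order of these 2 classes, with the higher level in FB-like cells. Called lower than in FB-like wells were Ptgis, at 39.5 and 44.5 RPM (log2 -3.54, SE 0.49, edgeR adjusted p = 0.000337), Ptger4, at 0.507 and 3.40 RPM (log2 -4.36, SE 0.95, edgeR adjusted p = 0.0109), Ptgs2, at 0 and 0.165 RPM (log2 -9.45, SE 1.87, edgeR adjusted p = 0.00551), and Ptges, at 0 in both (edgeR adjusted p = 0.0239). That made 4 of 10 members, with 5.34% of 14665 genes called (2.20% higher, 3.14% lower). The FB-like median of Ptges, 43.7 RPM, was at least 970.0-fold higher than the level that 3 reads would give in the shallower HSC-like portion (0.0451 RPM). Against VSMC-like wells, Ptgis (log2 -2.49, SE 0.46, edgeR adjusted p = 0.00193), Ptger4 (log2 -3.84, SE 0.92, edgeR adjusted p = 0.0120) and Ptges (edgeR adjusted p = 0.0436) were called lower, 3 of 10, with 10.4% of genes called (5.30% higher, 5.07% lower). Ptgs1 (log2 5.38, SE 1.93, edgeR adjusted p = 0.0983), Ptgir (log2 -2.27, SE 0.76, edgeR adjusted p = 0.0720), Ptger2 (log2 3.70, SE 1.95), Hpgd (log2 3.24, SE 1.53), Ptger3 (log2 1.28, SE 1.58), Ptgs2 (log2 0.50, SE 1.202) and Ptgds (log2 6.05, SE 2.17) did not pass. Without the portion Uninjured 3 of plate 6, the count was 2 against FB-like wells (Ptgs2 and Ptgis) and 1 against VSMC-like wells (Ptgis), and without Uninjured 2 it was 2 against FB-like wells (Ptgis and Ptger4). Either leaves 1 HSC-like portion, which is then assumed to vary as the portions of the other classes do.

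**Figure D4:**
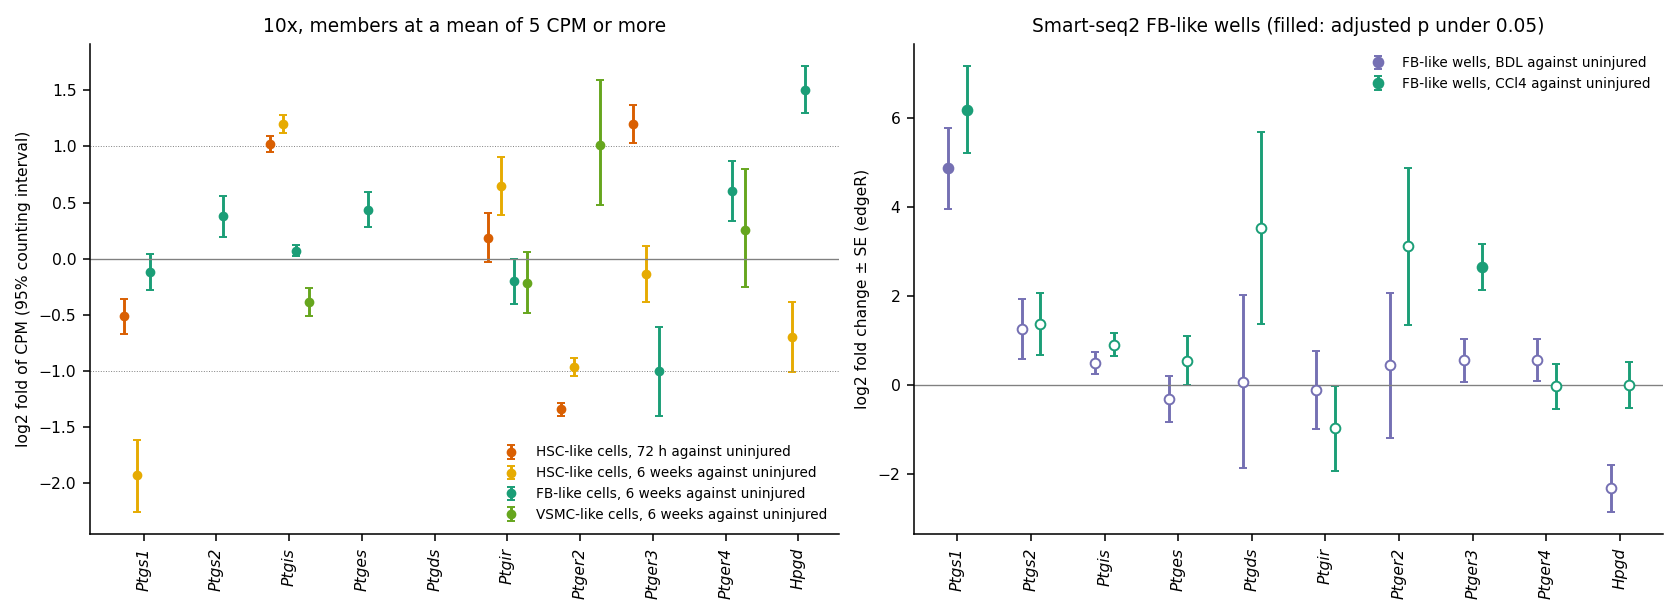
Left, log2 fold of CPM in 10x classes after CCl4 against uninjured (points, 95% counting intervals; dotted lines at 2-fold) for members with a mean of 5 CPM or more. Right, edgeR log2 fold change ± SE in FB-like Smart-seq2 wells, filled where the adjusted p was under 0.05; Ptgs1 was called for both injuries (4.87 and 6.19) and Ptger3 for CCl4 (2.64).

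For FB-like cells after 6 weeks of CCl4 the 10x libraries and the plates gave different values. Ptgs1 was 36.5 and then 33.6 CPM in the 10x libraries, where the plates gave a log2 change of 6.19. In the Sfrp1 10x cluster Ptgs1 was 16.8 and then 19.4 CPM (151 and 236 UMIs). It was 14.8 and 15.8 CPM in the Thbs4 cluster (122 and 51 UMIs) and 157 and 183 CPM in the Ly6c1 cluster (464 and 282 UMIs). No intervals were computed for these cluster values, so a rise within clusters is not established. The Ly6c1 cluster held 495 of 4066 uninjured and 198 of 2635 6-week FB-like cells, and the part of this shift in the class values was not tested. Ptger3 was 9.21 and then 4.61 CPM in the 10x libraries and 16.3 ± 7.23 RPM (SD, n = 6) and then 103 ± 12.1 RPM (n = 4) on the plates. Hpgd was 2.84-fold higher in the 10x libraries and 70.5 ± 42.0 RPM (n = 6) and then 69.8 ± 27.5 RPM (n = 4) on the plates. The 17 cells of the Saa3-led 10x cluster were all from the 6-week HSC library, none from the PF libraries, while 139 wells of a Saa3-led cluster were in the CCl4 portions of the plates.

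The 35 other genes of the pathway stood in 5 lists. At 72 h in HSC-like cells 2 of 16 past the level were higher, against 6.87% of all genes: Tbxa2r, the thromboxane receptor, from 12.4 to 49.1 CPM, and Ptgr1, a prostaglandin reductase, from 5.75 to 23.1 CPM. At 6 weeks 1 of 16 was lower in HSC-like cells, against 1.97%, namely Pla2g4a, the phospholipase A2 that releases arachidonic acid, from 8.68 to 4.12 CPM, and 0 of 17 and 0 of 13 were called in FB-like and VSMC-like cells, against 1.96% and 3.97%. On the plates 26 were tested in FB-like wells: 0 were called for BDL (0.724% of all genes) and 1 for CCl4 (0.754%), Alox15, a lipoxygenase (log2 9.56, SE 1.80, edgeR adjusted p = 0.0142), and 0 between the injuries. In VSMC-like wells 1 of 23 was called for BDL (0.283% of all genes), the prostaglandin exporter Abcc4 (log2 8.11, edgeR adjusted p = 0.0467). Ptgfr, the prostaglandin F receptor, was at 66.9 CPM in FB-like cells of uninjured 10x libraries, while VSMC-like cells gave 1.476 CPM and HSC-like cells 0.220 CPM. In wells it was called higher in FB-like than VSMC-like portions (log2 9.99, edgeR adjusted p = 0.000362) together with Abcc4 (log2 10.1, edgeR adjusted p = 0.00153) and Pla2g15 (log2 1.78, edgeR adjusted p = 0.00705). These were 3 of 26, against 6.36% of all genes called higher. HSC-like against VSMC-like wells called 2 of 26 higher, Ptgfr and Abcc4, against 5.30% of all genes. For Ptgfr the 10x libraries gave the reverse order of these 2 classes. HSC-like against FB-like wells called 0 of 26, against 5.34% of all genes, with Ptgfr at log2 -4.52 (SE 1.59, edgeR adjusted p = 0.133). Beside Ptgfr and Tbxa2r, the genes above 50 CPM in a 10x class were Ptges3 (101 to 231 CPM), Akr1b3 (87.1 to 138 CPM), Cbr1 (up to 65.1 CPM), and in uninjured FB-like cells Cbr3 (65.6 CPM) and Pla2g12a (50.5 CPM).

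Over the 11 groups of library and class with at least 100 cells, the genes whose log2(CPM + 1) followed a member most closely were Sept4 (Pearson r = 0.991), Hmox2 and Arvcf for Ptger2, Fxyd6 (r = 0.984), Col15a1 and Dnm1 for Ptgis, Ctsh (r = 0.994), Entpd2 and Nox4 for Ptges, and Phgdh (r = 0.982), Grasp and Rhou for Ptgs2. Ptgir was followed by Foxc1 (r = 0.975), D2Wsu81e and Hebp1, Ptgs1 by Tmed2 (r = 0.959), Rab3d and Tmem263, Hpgd by Nsmaf (r = 0.947), 2410002F23Rik and Pum3, and Ptger3 by Mrpl36 (r = 0.942), Srp14 and Srd5a3. Groups of 1 library share its depth and mice, and Col15a1 and Entpd2 were among the FB markers.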

How the data were processed

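GFP+ mesenchymal cells of mouse liver were measured in 5 10x libraries and 6 Smart-seq2 plates. The authors processed the 10x reads with Cell Ranger 2.1.0 on mm10 (version per the submitters' processing notes), and their deposited counts are UMIs. The deposited Smart-seq2 counts are whole reads that were not normalized, from STAR alignment to mm10 extended with eGFP and ERCC and from rpkmforgenes with RefSeq genes; whether counting used strand is not given in the sources used here, so Ptgs2 reads cannot be told from those of its antisense genes. Rows of a repeated symbol (771 a plate) were summed.

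The members and gene lists were chosen with earlier results of these data known. By the rule for named genes, values were given for the 10 members and by counts for other pathway genes; pathway genes were named where past a threshold or above 50 CPM in a 10x class, and 3 genes of highest Pearson r for each member that reached 20 CPM. The study's filters were used: a gene needed 3 cells, a cell 300 genes and at most 30% mitochondrial UMIs, and a well had to lie within 3 median absolute deviations. Cells were clustered together (2000 variable genes without the members, 10 components, 30 neighbours, Leiden at 0.8) and named from fixed markers; scored doublets (238 to 427 a library) were kept. Portions with at least 5 wells of a class were summed and tested with edgeR 4.0.16 quasi-likelihood (TMM, filterByExpr, Benjamini-Hochberg over all genes tested), and DESeq2 1.42.0 was an alternative. In counts simulated for FB-like wells under BDL (13399 genes), 2 of 100 genes changed 2-fold and 26 of 100 changed 4-fold were recovered. The 12 wells labelled Control were left out, and values of 2 well clusters, 1 FB-like and 1 VSMC-like, are not reported here. Positions are from GENCODE on GRCm38. Python 3.11.15 and R 4.3.3 were used.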

Additional observations from a re-analysis of the deposited data

Results flagged for a closer look

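In 14 of 49 groups of 4 to 6 portions in which a member reached 5 RPM, 1 portion stood apart from the others of its group by Dixon's criterion. Its rate of about 1 in 20 by chance holds for normally distributed values. These RPM were not transformed and often came from a few wells, so 14 of 49 is not shown to exceed chance. In FB-like wells of uninjured mice these were Ptges at 159 RPM and Ptgir at 63.7 RPM, both in portion 1 of plate 6, which had 12 FB-like wells, of which 1 gave 91.2% of the Ptgir reads. Ptgs1 at 6.22 RPM on plate 5 came to 93.7% from 1 well, and Ptger2 stood at 10.6 RPM on plate 1 with reads in 2 wells.

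In FB-like wells of CCl4 mice, Ptgs2 was 453 RPM in portion 2 of plate 5, with 47.1% of the reads from 1 well and the next portion at 93.8 RPM. Ptgs1 was 172 RPM and Ptgds 21.4 RPM in portion 1 of plate 5, spread over 60 and 10 of 83 wells. In BDL, Hpgd was 34.1 RPM in BDL portion 1 of plate 4, with reads in 23 of 108 wells, and Ptger3 was low, at 2.75 RPM, in BDL portion 1 of plate 2.

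In VSMC-like wells the flagged levels were mostly a few wells: Hpgd at 9.20 RPM in the uninjured portion of plate 2 (3 wells), Ptgds at 8.41 RPM in BDL portion 1 of plate 2 (1 well), Ptges at 5.93 RPM in BDL portion 2 of plate 1 (2 wells) and Ptgs2 at 12.4 RPM in CCl4 portion 2 of plate 5 (2 wells). Ptgir at 50.1 RPM in CCl4 portion 2 of plate 3 had reads in 30 of 90 wells.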

How the results depend on the processing

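Of 205 alternative values of the counts of members, 183 were within 1.5 times the main count and 22 were not; of 260 values of single members, 238 kept direction and side of the threshold, 19 no longer passed the threshold and 3 moved by more than counting error. No direction reversed. The 10x counts moved at a mean of 1 CPM or more to 5 (72 h, adding Hpgd and Ptgs2) and 2 (VSMC-like, adding Ptgs2), with no filter on cells to 2 (FB-like, adding Ptger3) and with the mean over cells to 0 (VSMC-like). For FB-like wells, BDL gave 2 members with DESeq2's size factors and 2 with its Wald test (adding Hpgd), and 0 with the Wif1 cluster as FB-like, an alternative chosen after seeing the data; CCl4 gave 1 with that cluster and 1 with plate as a term; BDL against CCl4 gave 2 with the Wald test. FB-like against VSMC-like wells gave 7 with the Wald test and 5 with the Wif1 cluster. Leaving out each portion in turn gave 0 to 2 for BDL, 1 to 2 for CCl4, 0 to 1 for BDL against CCl4 (Hpgd, without BDL portion 1 of plate 4), 2 to 3 for FB-like against VSMC-like, 2 to 5 for HSC-like against FB-like and 1 to 4 for HSC-like against VSMC-like wells, and 0 to 0 in VSMC-like wells. In HSC-like against VSMC-like wells, Ptges was lost without each of 5 of the 8 portions in turn. Over all genes, the number called changed from 97 to 394 (FB-like BDL), 101 to 354 (FB-like CCl4), 12 to 161 (BDL against CCl4), 37 to 221 (VSMC-like BDL), 0 to 47 (VSMC-like CCl4), 1 to 67 (VSMC-like BDL against CCl4), 1719 to 3547 (FB-like against VSMC-like), 783 to 1647 (HSC-like against FB-like) and 1520 to 2355 (HSC-like against VSMC-like) with the Wald test. With plate as a term it was 9, 23, 0 and 2 in the first 4 of these, and with portions of at least 10 wells 63 and 3 for FB-like BDL and BDL against CCl4; limits on wells set on log10 totals gave 5 for the latter. No paired analysis was possible because the labels do not tie a portion's number to a mouse or batch shared across conditions, beyond the portion block and the plate term already run. Of 100 simulated 4-fold changes, 26 were recovered for FB-like BDL wells, 44 for VSMC-like BDL wells, 7 for FB-like against VSMC-like and 3 for HSC-like against FB-like wells, so a member that was not called may still differ.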

Other observations

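Within the HSC libraries, members differed along the study's zonation signature, computed over all kept cells as the mean standardized level of 52 portal genes less that of 29 central genes, neither list holding a member, and split by 2-means clustering. In uninjured mice the 2988 cells on the portal side and the 3862 on the central side, with 495 cells near the cut, gave Ptger3 at 14.997 and 3.66 CPM, Ptgir at 8.99 and 3.09 CPM, Ptgs1 at 7.62 and 17.5 CPM and Hpgd at 2.59 and 10.1 CPM, while Ptger2 was 107 and 109 CPM and Ptgis 46.2 and 45.5 CPM. At 6 weeks Ptgis was 60.6 CPM on the portal and 132 CPM on the central side, and Ptger3 19.1 and 6.04 CPM. At 72 h Ptger3 was 14.3 and 19.4 CPM, the other way round. These are ranges of a score in 1 library each, with no test.

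Cells split the same way by fibrillar collagen (Col1a1, Col1a2 and Col3a1) gave Ptgis at 110 CPM in high and 67.4 CPM in low cells at 72 h and at 150 and 82.9 CPM at 6 weeks, against 49.1 and 43.7 CPM in uninjured mice. Ptger2 went the other way, at 32.1 and 60.0 CPM at 72 h and 44.0 and 65.4 CPM at 6 weeks, against 105 and 110 CPM uninjured. Ptgs2 was 7.25 and 0.600 CPM at 72 h and 5.30 and 0.456 CPM at 6 weeks, where FB-like cells held most of its UMIs. The 12 Control wells, with 87473 reads in all, held 9 reads of Ptgis, 3 of Ptges and 1 each of Ptgs1 and Ptger2, which were not compared with any group.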
